A study of Mus musculus with 15 samples.

Results

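Transcripts of the phagocyte NADPH oxidase and of the nitric oxide synthases were followed in mouse kidney and lung after chemical injury, with or without neutralization of leptin. The 8 genes were *Cybb*, *Cyba*, *Ncf1*, *Ncf4*, *Rac2*, *Nox4*, *Nos2* and *Nos3*, taken by symbol from the 56748 genes of the count table, and each was found once. The question was how these enzymes differ between uninjured and folic acid–injured kidney, and how they differ in injured kidney and lung when leptin is neutralized.

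All groups were male wild-type C57Bl/6 mice, with 3 libraries in each group and 1 library taken as 1 mouse. The WTK kidneys came from mice given vehicle. The methods describe vehicle-treated mice that then received LepAb or IgG, but the labels name no antibody for these libraries. The IgGK and LepK kidneys came from mice given folic acid at 200 mg/kg, which injures the tubule, followed by control IgG or by LepAb, an antibody that neutralizes leptin. The IgGL and LepL lungs came from mice given bleomycin at 1.5 units/kg, followed by the same antibodies. Antibodies were given at 10 mg/kg every other day from day 1, for 21 days in the kidney model and 14 days in the lung model. Mice of the kidney model were 10 to 12 weeks old and were euthanized on day 28, and those of the lung model were 12 weeks old and were euthanized on day 14. Lungs of vehicle-treated mice were not analysed here, so the effect of bleomycin itself has no comparison. Whole organs were sequenced, so fewer cells of a type and less RNA per cell cannot be told apart in any result below.

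The phagocyte NADPH oxidase moves electrons from NADPH across a membrane onto oxygen and so makes superoxide, which phagocytes use to kill microbes. *Cybb* encodes gp91phox (NOX2), its catalytic subunit, and *Cyba* encodes p22phox, the membrane partner that stabilizes both NOX2 and NOX4. *Ncf1* (p47phox) and *Ncf4* (p40phox) are cytosolic subunits that join the membrane pair on activation, together with the small GTPase encoded by *Rac2*. *Nox4* encodes a related oxidase that is constitutively active, releases mainly hydrogen peroxide and is abundant in the proximal tubule. *Nos2* encodes the inducible nitric oxide synthase of activated macrophages and epithelia, and *Nos3* encodes the endothelial enzyme that controls vascular tone.

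Each gene is protein coding and is placed here by the coordinates of the count table, whose build is GRCm39 by the submitters' processing notes. *Cybb* (ENSMUSG00000015340) lies on chromosome X from 9301491 to 9354010, on the minus strand. *Cyba* (ENSMUSG00000006519) lies on chromosome 8 from 123151515 to 123159669, minus strand. *Ncf1* (ENSMUSG00000015950) lies on chromosome 5 from 134248907 to 134258479, minus strand. *Ncf4* (ENSMUSG00000071715) and *Rac2* (ENSMUSG00000033220) both lie on chromosome 15, from 78129001 to 78146780 on the plus strand and from 78443367 to 78456983 on the minus strand. *Nox4* (ENSMUSG00000030562) lies on chromosome 7 from 86895304 to 87047918, *Nos2* (ENSMUSG00000020826) on chromosome 11 from 78811613 to 78851080, and *Nos3* (ENSMUSG00000028978) on chromosome 5 from 24569808 to 24589472, each on the plus strand. *Ncf1* overlaps *Gtf2ird2*, which held 277 to 612 counts a library, and *Nos3* overlaps *Atg9b*, with 0 to 449 counts, and the noncoding *Gm15587*, with 0 to 59 counts. The libraries were not strand-specific, so reads from these overlaps cannot be assigned to 1 strand and the values of *Ncf1* and *Nos3* carry that uncertainty.

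RefSeq promoter windows (build GRCm38.p6) were at hand for 4 of the 8 genes. The 250 bases before the start site are shown for *Cybb* and *Ncf1*, which rose together in injured kidney, and for *Nox4*, which fell there. Capitals mark matches, on either strand, to an interferon response element (GAAA and GAAA with any 2 bases between) or to the STAT element TTCNNNGAA.
*Cybb*, chrX:9469325-9469574, minus strand: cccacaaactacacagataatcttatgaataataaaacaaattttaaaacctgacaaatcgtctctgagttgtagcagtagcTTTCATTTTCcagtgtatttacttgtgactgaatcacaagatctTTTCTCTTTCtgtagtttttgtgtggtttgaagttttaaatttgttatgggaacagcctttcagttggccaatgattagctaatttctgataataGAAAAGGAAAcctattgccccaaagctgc
*Ncf1*, chr5:134229626-134229875, minus strand: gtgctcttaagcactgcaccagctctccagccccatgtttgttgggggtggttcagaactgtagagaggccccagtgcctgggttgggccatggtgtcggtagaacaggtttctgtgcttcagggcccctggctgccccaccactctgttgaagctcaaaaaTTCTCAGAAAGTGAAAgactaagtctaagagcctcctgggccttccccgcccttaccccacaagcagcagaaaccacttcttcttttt
*Nox4*, chr7:87246399-87246648, plus strand: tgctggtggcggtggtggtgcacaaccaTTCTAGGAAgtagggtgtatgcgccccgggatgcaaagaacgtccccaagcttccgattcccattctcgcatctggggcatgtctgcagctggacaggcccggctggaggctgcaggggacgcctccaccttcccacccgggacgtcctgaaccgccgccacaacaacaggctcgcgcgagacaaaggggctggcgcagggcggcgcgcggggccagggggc

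The *Cybb* window held 3 matches to the interferon response element and that of *Ncf1* held 1, against 2.98% of all 32851 windows of this length with any match. A single TTCNNNGAA match lay in each of the *Ncf1* and *Nox4* windows, against 7.02% of all windows, and the one in *Ncf1* shares 3 bases with its interferon response match. The NF-kB letters (GGG and CC with any 5 bases between) matched in all 4 windows, that of *Cyba* included, but also in 45.8% of all windows. GAGGAA (the ETS core that PU.1 binds, 23.3% of windows), TTGCNNAA (C/EBP, 9.56%) and TATAAA (12.4%) had no match in these 4. Base composition differed too, with 34.0% G and C in the *Cybb* window, 54.4% in that of *Ncf1* and 67.2% in that of *Nox4*. These matches describe the letters of the windows only.

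Total counts, rounded to 6 digits, ran from 25914000 to 32322000 in the 9 kidney libraries and from 29974700 to 38924800 in the 6 lung libraries, and all 8 genes passed the filter on low counts in both organs. Markers of proximal tubule, which define the kidney, summed to between 6911 and 26599 normalized CPM (counts scaled by TMM library size) in kidney, and markers of airway and alveolar epithelium to between 16921 and 48381 CPM in lung. Of the IgGK libraries, replicates 1 and 2 carried many adrenal cortex transcripts and are called the libraries with adrenal transcripts below. The 7 markers of that gland summed to 637 and 819 CPM there, against 17.4 CPM in IgGK replicate 3 and 5.87 to 8.09 CPM in the other kidney libraries. Replicate 3 was not free of them, with 2.34 CPM of *Cyp21a1*, which reached at most 0.0335 CPM in WTK and LepK libraries. The members' tests that rest on IgGK were therefore repeated without replicates 1 and 2. That alternative was chosen after the data were seen and leaves 1 IgGK library, assumed to vary like the other groups. The pathway and marker lists were not repeated. The 7 adipocyte markers summed to 336 to 551 CPM in IgGK, lowest in replicate 3. Their sums were 37.9 to 128 CPM in WTK and 108 to 281 CPM in LepK. Leaving out replicates 1 and 2 therefore does not remove the raised adipocyte markers.

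**Figure D1:**
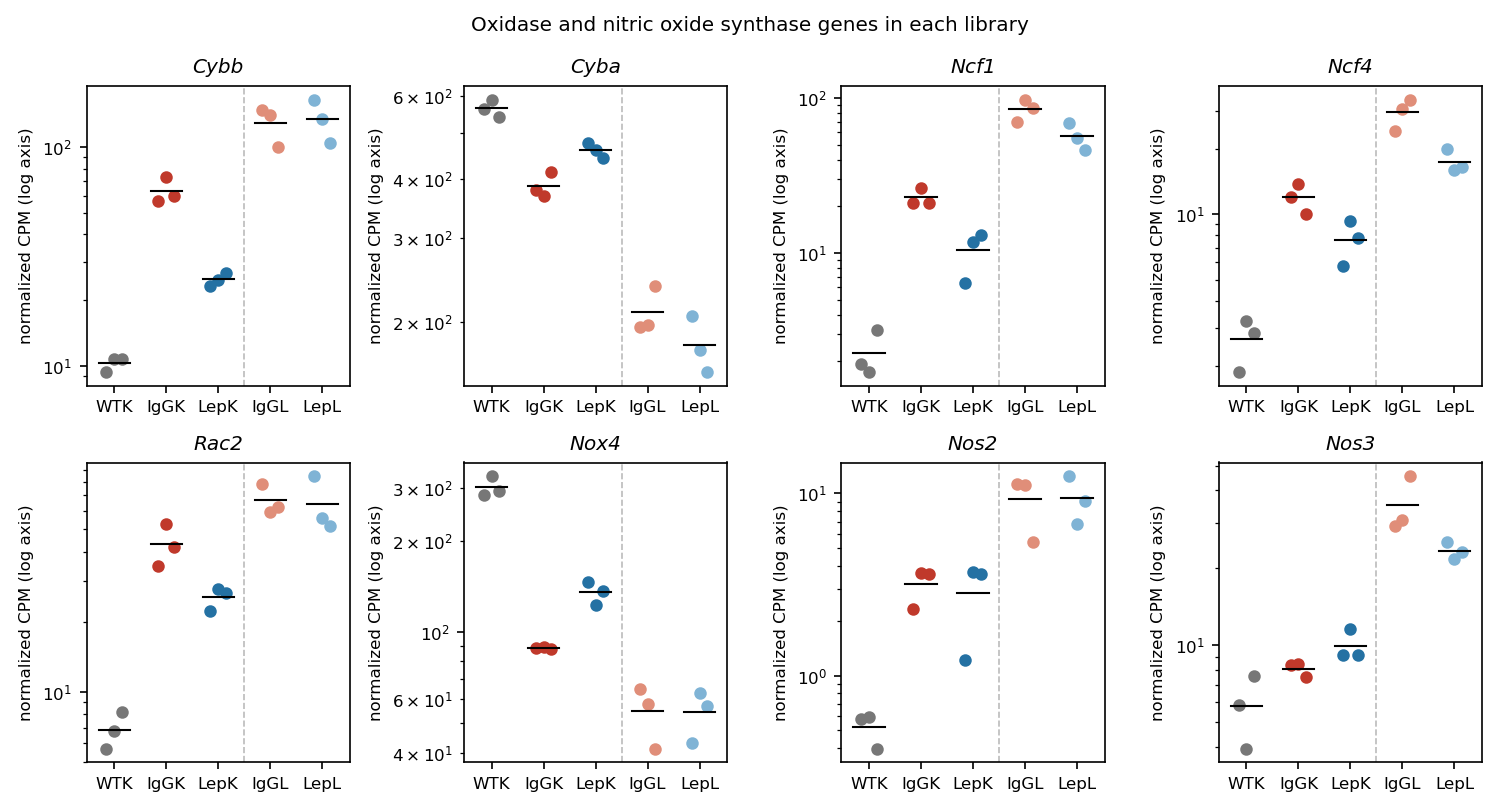
Each point is 1 library, with normalized CPM on a log axis that differs between panels, and each bar is the mean of the 3 libraries of a group. Kidney groups stand left of the dashed line and lung groups right of it, scaled within each organ. The IgGK points of *Cybb*, *Ncf1*, *Ncf4*, *Rac2* and *Nos2* lie above all WTK points, and those of *Nox4* and *Cyba* lie below them.

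Levels between genes were compared per length, as FPKM (fragments per kilobase of gene, scaled by depth) within a library. In WTK kidney *Cyba* stood highest, at 448 ± 18.9 FPKM (SD, n = 3), and *Nox4* was next at 29.4 ± 2.26. The phagocyte genes were far lower there: *Rac2* had 1.83 ± 0.334 FPKM, *Cybb* 1.46 ± 0.117, *Ncf4* 1.09 ± 0.291 and *Ncf1* 0.511 ± 0.181. *Nos3* had 1.16 ± 0.368 FPKM and *Nos2* only 0.0975 ± 0.0203. The group ranges of *Rac2* and *Cybb*, of *Cybb* and *Nos3*, and of *Nos3* and *Ncf4* overlapped. Within each WTK library, however, *Rac2* exceeded *Cybb*, at a ratio of 1.14 to 1.42. *Cybb* also exceeded *Nos3* in each, by little in replicate 3, while *Nos3* and *Ncf4* changed order between libraries.

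In IgGK kidney *Cyba* was still highest, at 300.04 ± 17.4 FPKM, and *Rac2* at 11.2 ± 2.33, *Cybb* at 8.78 ± 1.24 and *Nox4* at 8.44 ± 0.0673 came next. The range of *Cybb* overlapped those of both its neighbours, while every *Rac2* value lay above every *Nox4* value. Within each IgGK library *Rac2* over *Cybb* was 1.15 to 1.34, and *Nox4* over *Cybb* was 0.831 to 1.07. *Ncf1* at 5.02 ± 0.662 FPKM and *Ncf4* at 4.78 ± 0.754 followed, also overlapping, and *Nos3* and *Nos2* stayed lowest at 1.58 ± 0.102 and 0.579 ± 0.138. In IgGL lung the 3 highest after *Cyba* (138 ± 13.7 FPKM) were *Ncf1* (15.8 ± 2.48), *Cybb* (15.4 ± 3.26) and *Rac2* (14.7 ± 2.47), which overlapped one another. *Nos3* there had 5.81 ± 1.41 FPKM and *Nox4* 4.44 ± 1.06, again with overlapping ranges.

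The first comparison asks what folic acid injury under control IgG did to these genes. In IgGK kidneys the catalytic subunit, the cytosolic subunits, the GTPase and *Nos2* rose by 4.50- to 10.01-fold over WTK, while the oxidase of the tubule, *Nox4*, fell to 0.294 of its WTK level. A call needed an absolute log2 fold change over 0.5 and an adjusted p under 0.05 in edgeR's quasi-likelihood test over 19593 genes. By this rule 5 of the 8 genes rose and 2 fell, where 37.3% of all genes tested were called, 21.7% up and 15.6% down. The libraries of the 2 groups did not overlap for 7 of the 8 genes, against 62.6% of all genes tested.

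*Cybb* measured 9.35, 10.7 and 10.7 CPM in the WTK libraries and 56.8, 73.5 and 59.7 CPM in the IgGK libraries. Every IgGK kidney thus held more *Cybb* than any WTK kidney, with a log2 fold change of 2.62 (SE 0.11, adjusted p = 1.28e-08, edgeR). Its membrane partner went the other way. *Cyba* measured 563, 588 and 540 CPM in WTK and 379, 368 and 413 CPM in IgGK, a log2 fold change of -0.54 (SE 0.07, adjusted p = 2.53e-05). The fall of *Cyba* depended on the scaling. With library size alone, which moved the median log2 fold change of all genes from 0.04 to 0.48 and the split of calls from 4253 up and 3057 down to 7803 and 1178, it was -0.10 with adjusted p = 0.166. Without the 2 libraries with adrenal markers it was -0.45, short of the fold threshold, and the other 6 called members were still called.

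The cytosolic subunits rose in parallel with *Cybb*. *Ncf1* went from 1.91, 1.70 and 3.17 CPM in WTK to 21.1, 26.3 and 21.1 CPM in IgGK, the largest rise of the 8 at a log2 fold change of 3.32 (SE 0.28, adjusted p = 8.68e-07). *Ncf4* went from 1.87, 3.24 and 2.85 CPM to 12.1, 13.8 and 10.1 CPM, a log2 fold change of 2.17 (SE 0.23, adjusted p = 6.53e-06). *Rac2* had 5.69, 6.75 and 8.15 CPM in WTK and 34.9, 52.8 and 41.9 CPM in IgGK, a log2 fold change of 2.65 (SE 0.17, adjusted p = 1.20e-07). None of these groups overlapped.

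*Nox4* had 284, 327 and 293 CPM in WTK and a narrow 88.8, 89.1 and 88.2 CPM in IgGK. The log2 fold change was -1.76 (SE 0.08, adjusted p = 1.50e-08), and it was called under all 11 other settings tried, at -1.77 to -1.32. *Nos2* was rare in uninjured kidney, with 14, 15 and 11 counts in the WTK libraries (0.582, 0.592 and 0.397 CPM). It reached 2.31, 3.66 and 3.61 CPM in IgGK, a log2 fold change of 2.61 with a wide SE of 0.44 (adjusted p = 0.00027). *Nos3* had 5.86, 3.95 and 7.61 CPM in WTK and 8.34, 8.43 and 7.52 CPM in IgGK, overlapping groups that did not differ by the test (log2 fold change 0.48, SE 0.21, adjusted p = 0.0723). Leaving out WTK replicate 3 brought *Nos3* past it, at 0.72 with adjusted p = 0.0132, and so did library size alone, at 0.92 with adjusted p = 0.00294.

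**Figure D2:**
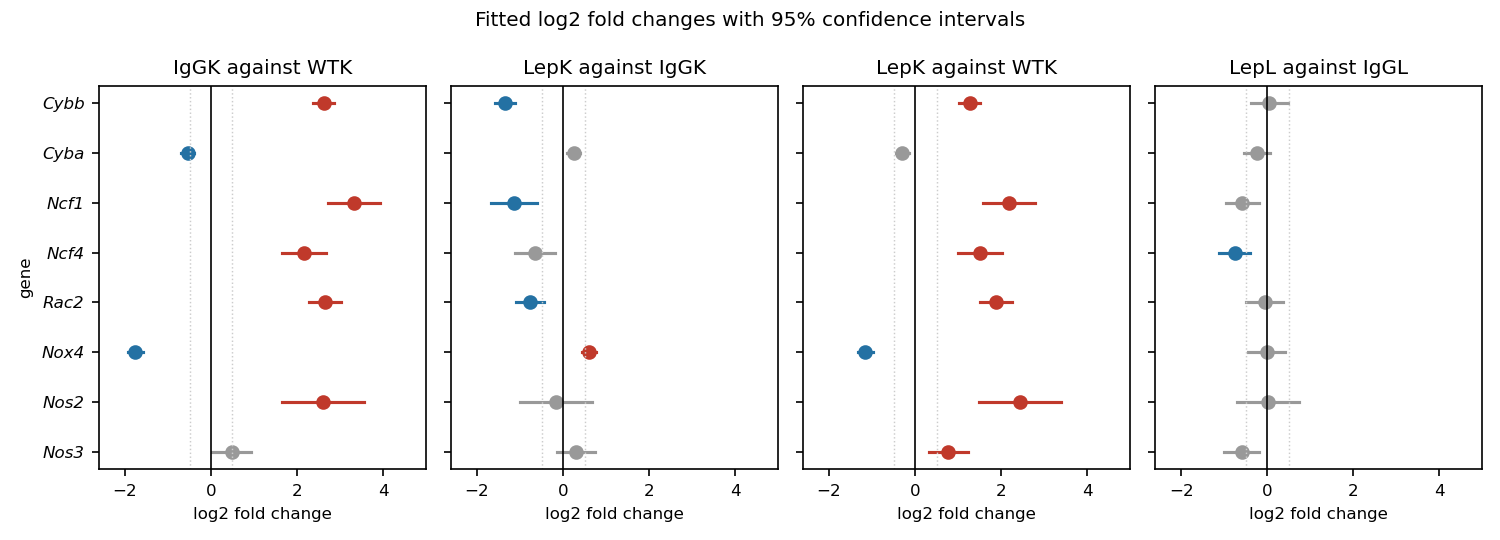
Points are fitted log2 fold changes from edgeR and lines their 95% confidence intervals, for 8 genes in 4 comparisons of 3 libraries against 3. Red marks genes called higher, blue genes called lower, grey genes not called, and dotted lines the fold threshold of 0.5. Injury (IgGK against WTK) spans the widest range, from -1.76 for *Nox4* to 3.32 for *Ncf1*.

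Cell type markers moved with these genes in injured kidney. The 10 general leukocyte markers, all of which were called higher, summed to 128 to 160 CPM in WTK and 608 to 837 CPM in IgGK. The 12 macrophage markers, also all higher, went from 232 to 261 CPM up to 1950 to 2468 CPM. The 12 neutrophil markers went from 3.40 to 3.99 CPM up to 22.2 to 31.3 CPM. Only 6 of these 12 could be tested, with 5 called higher, and *Csf3r* at 12.8 to 17.2 CPM was the largest part of the IgGK sum. Taken as a share of the leukocyte sum, *Cybb* was 6.73% to 7.27% in WTK and 8.78% to 9.33% in IgGK, *Rac2* 4.43% to 5.10% and 5.74% to 6.55%, and *Ncf4* 1.45% to 2.18% and 1.57% to 1.99%. For *Ncf1* that share went from between 1.14% and 1.99% to between 3.14% and 3.47%. These shares of *Cybb*, *Rac2* and *Ncf1* were higher in every IgGK library than in any WTK library, and those of *Ncf4* overlapped. Against the macrophage sum the share of *Cybb* went the other way, from 3.99% to 4.62% in WTK down to 2.91% to 2.98% in IgGK. The direction of this share depended on which markers were summed. *Lyz2*, singled out after its values were seen, had 33.7 to 46.3 CPM in WTK and 1014 to 1285 CPM in IgGK. The other 11 macrophage markers summed to 198 to 214 CPM in WTK and 936 to 1183 CPM in IgGK. Of that smaller sum the share of *Cybb* was higher in every IgGK library than in any WTK library. That sum kept *Csf1r*, which rose less than *Cybb*, from 84.8 to 90.1 CPM in WTK to 147 to 160 CPM in IgGK. The median log2 fold change of the 12 macrophage markers was 3.14, against 2.62 for *Cybb*. Neither share therefore settles how *Cybb* moved relative to macrophage markers.

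The proximal tubule markers fell over the same comparison, all 12 of them, from a sum of 25383 to 26599 CPM in WTK to 6911 to 9084 CPM in IgGK. *Nox4* equalled 1.07% to 1.25% of that sum in WTK and 0.978% to 1.29% in IgGK, 2 overlapping ranges. *Cyba* equalled 2.12% to 2.25% of it in WTK and 4.17% to 5.33% in IgGK. The part of cell composition in these results was not tested.

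Among 18 other NADPH oxidase genes, 12 could be tested in kidney, of which 7 rose and 1 fell in IgGK, with a median log2 fold change of 0.91 against 0.04 over all genes. *Vav1* (2.56) and *Prex1* (1.67), exchange factors that load Rac proteins with GTP, rose on the log2 scale, as did *Hvcn1* (1.71), the proton channel that balances the charge the oxidase moves. The organizer-related adaptors *Sh3pxd2b* (2.56) and *Sh3pxd2a* (1.29) also rose, while *Cybc1* (0.50), a chaperone of the membrane pair, only just passed the fold threshold. The gene that fell was *Poldip2* (-0.72), whose product associates with p22phox and NOX4.

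Genes that handle superoxide and peroxide went down, 9 of 13 tested and none up, with a median of -0.64. The largest falls were of *Sod3* (-1.22), the extracellular superoxide dismutase, and *Gpx3* (-1.21), the secreted glutathione peroxidase made by proximal tubule. For arginine and tetrahydrobiopterin supply 5 genes rose and 6 fell of 12. *Arg1*, an arginase that competes for the substrate of nitric oxide synthase, rose by 3.74 on the log2 scale from a low level (0.0790 to 0.289 CPM in WTK), and *Slc7a2*, an arginine transporter, rose by 2.66. Of 13 partners and response genes of nitric oxide synthase, 6 rose and 2 fell, led by *Nos1*, the neuronal enzyme (-2.44), and *Gucy1a1*, a subunit of the guanylate cyclase that senses nitric oxide (1.82). Among inducers and regulators 12 of 14 rose and none fell, led by the cytokines *Tnf* (3.08) and *Il1b* (2.58).

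The second comparison asks how leptin neutralization altered these genes in injured kidney. LepK kidneys held less *Cybb*, *Ncf1* and *Rac2* than IgGK kidneys, by 0.393-, 0.454- and 0.589-fold, and more *Nox4*, by 1.53-fold. With the same rule 3 of the 8 genes fell and 1 rose, where 10.4% of all genes tested were called, 5.99% down and 4.38% up. Without the 2 libraries with adrenal transcripts the calls over all genes turned from 858 up and 1174 down to 429 up and 235 down, and 3 members were called, *Cybb*, *Rac2* (-0.71, adjusted p = 0.0470) and *Nox4* (0.63, adjusted p = 0.0244). The libraries of the 2 groups did not overlap for 7 of the 8 genes, against 37.4% of all genes.

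*Cybb* measured 23.1, 24.8 and 26.7 CPM in LepK, all below the lowest IgGK value of 56.8 CPM. Its log2 fold change was -1.35 (SE 0.10, adjusted p = 5.62e-05), and it was called each time a library was left out, at -1.41 to -1.22. Against IgGK replicate 3 alone, the IgGK library with the fewest adrenal transcripts, it was -1.25. *Ncf1* had 6.42, 11.7 and 12.996 CPM in LepK, a log2 fold change of -1.14 (SE 0.24, adjusted p = 0.00614). Against IgGK replicate 3 alone the *Ncf1* value was -1.01 with adjusted p = 0.146, so that call was lost. *Rac2* had 22.2, 27.7 and 26.5 CPM in LepK, a log2 fold change of -0.76 (SE 0.15, adjusted p = 0.00409).

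*Ncf4* followed the same direction without passing the test. It had 5.79, 9.29 and 7.79 CPM in LepK, all below the lowest IgGK value of 10.1 CPM, with a log2 fold change of -0.65 (SE 0.22, adjusted p = 0.0512). The call for *Ncf4* turned on the procedure. It was called under 6 of 11 other settings, and in 2 of the 9 fits that leave out 1 library. Among those settings DESeq2 gave adjusted p = 0.0191 and library size alone a log2 fold change of -0.83 with adjusted p = 0.0198.

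*Nox4* measured 147, 123 and 136 CPM in LepK, above all 3 IgGK libraries and below all 3 WTK libraries. The log2 fold change over IgGK was 0.61 (SE 0.08, adjusted p = 0.000419). With library size alone, which moved the median of all genes from -0.01 to -0.19 and the calls from 858 up and 1174 down to 408 and 2185, that of *Nox4* was 0.43, under the fold threshold, with adjusted p = 0.00134. *Cyba* had 477, 461 and 443 CPM in LepK, higher than every IgGK library, but by only 0.25 on the log2 scale (SE 0.07, adjusted p = 0.0224), and 0.07 (adjusted p = 0.426) with library size alone.

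The nitric oxide synthases gave no call here. *Nos2* had 1.22, 3.72 and 3.62 CPM in LepK, with replicate 1 below and the others level with IgGK. Its log2 fold change of -0.17 had a 95% interval from -0.997 to 0.664 and turned to 0.20 without LepK replicate 1. *Nos3* had 9.18, 11.6 and 9.12 CPM in LepK, above every IgGK library, with a log2 fold change of 0.30 and an interval from -0.14 to 0.74 (adjusted p = 0.345).

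**Figure D3:**
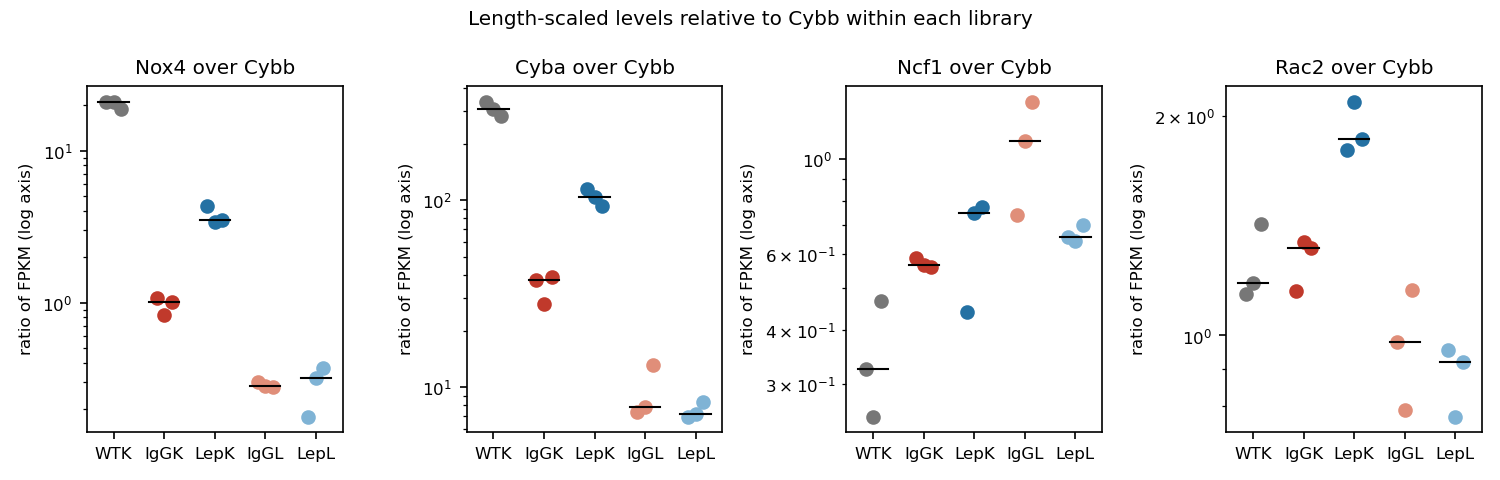
Each point is the ratio of the FPKM of 2 genes within 1 library, on a log axis that differs between panels, and bars are group medians. *Nox4* over *Cybb* has kidney medians of 20.8 (WTK), 1.01 (IgGK) and 3.50 (LepK) and lung medians of 0.283 (IgGL) and 0.320 (LepL). *Rac2* over *Cybb* lies between 0.774 and 2.09 in every library. In LepK it is 1.80 to 2.09, above WTK (1.14 to 1.42) and IgGK (1.15 to 1.34).

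The ratio of the 2 catalytic subunits, taken within each library, drew these shifts together. *Nox4* over *Cybb* in FPKM was 18.7 to 20.96 in WTK, 0.831 to 1.07 in IgGK and 3.41 to 4.34 in LepK, with no overlap between the 3 kidney groups. The partner subunit gave the same order, with *Cyba* over *Cybb* at 281 to 337 in WTK, 28.02 to 38.7 in IgGK and 92.7 to 115 in LepK. *Cyba* over *Nox4* moved less, at 14.7 to 16.2, 33.7 to 38.2 and 26.5 to 30.5. These ratios follow from the levels already given and carry no test of their own.

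The LepK sums of leukocyte, macrophage, neutrophil and proximal tubule markers lay between those of the other kidney groups. Leukocyte markers summed to 307 to 419 CPM, with 9 of 10 called lower than in IgGK, and macrophage markers to 704 to 1047 CPM, with 11 of 12 lower. Neutrophil markers summed to 10.6 to 13.1 CPM, with 4 of 6 tested lower, and proximal tubule markers to 12345 to 15873 CPM, with 9 of 12 higher. *Cybb* was 5.91% to 7.53% of the leukocyte sum in LepK, below its share in every IgGK library. Its share of the macrophage sum in LepK, 2.37% to 3.29%, overlaps the IgGK range. Without *Lyz2* (276 to 466 CPM in LepK) the other 11 macrophage markers summed to 427 to 581 CPM in LepK. Of that smaller sum the share of *Cybb* was lower in every LepK library than in any IgGK library. That sum kept *Csf1r*, at 115 to 123 CPM in LepK and 147 to 160 CPM in IgGK. As with injury, this share depends on which markers are summed. It does not settle whether *Cybb* fell beyond macrophage markers. *Rac2* was 6.59% to 7.23% of the leukocyte sum, above its IgGK range. *Nox4* was 0.923% to 1.03% of the tubule sum, overlapping its IgGK range. Their part in the results was not tested.

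**Figure D4:**
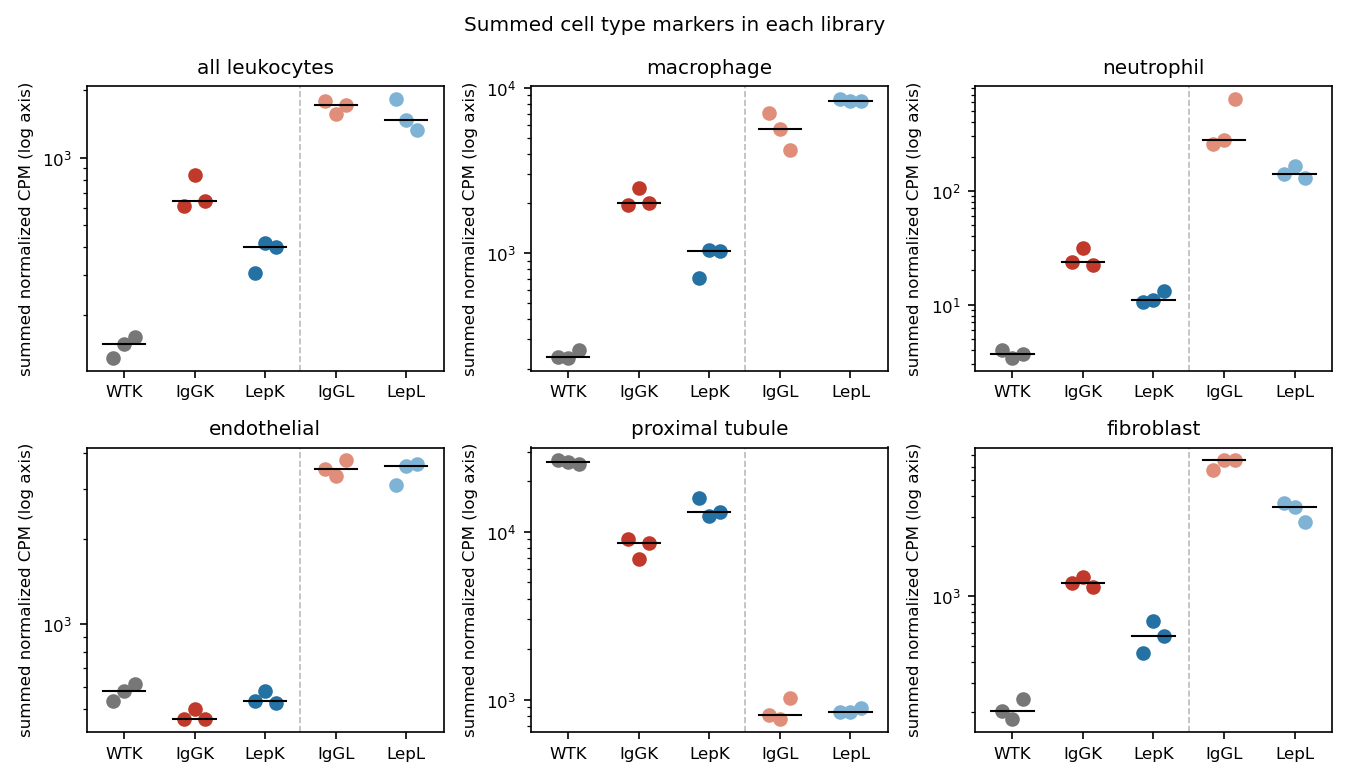
Each point is the summed normalized CPM of a marker list in 1 library, on a log axis, and bars are group medians. In kidney the leukocyte, macrophage, neutrophil and fibroblast sums of LepK lie between those of WTK and IgGK, and so does the proximal tubule sum in the opposite order.

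Among the other oxidase genes 5 of 12 fell in LepK and none rose, with a median of -0.57 against -0.01 over all genes. Among them were *Sh3pxd2b* (-0.92), *Prex1* (-0.84), *Vav1* (-0.63) and *Sh3pxd2a* (-0.53). Superoxide and peroxide handling went the other way, with 5 of 13 genes up and none down, led by *Sod3* (0.76) and *Gpx3* (0.69). In arginine and tetrahydrobiopterin supply 4 of 12 rose and 1 fell. *Ass1*, which makes the arginine precursor argininosuccinate and is abundant in proximal tubule, rose by 1.32, and *Slc7a2* fell by 0.95. *Gucy1a1* (-0.89) and *Prkg1* (-0.84), the latter the kinase activated by cyclic GMP, led the 5 of 13 partners and response genes that fell, with none up. Of 14 inducers and regulators 3 fell and none rose, led by *Il1b* (-1.46) and *Spi1* (-1.08), which encodes PU.1, a myeloid transcription factor that binds the *Cybb* gene.

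LepK was also set against WTK, to ask what remained different from uninjured kidney under the antibody. In LepK 6 of the 8 genes stood higher and 1 lower, where 22.5% of all genes tested were called, 15.2% higher and 7.30% lower. *Ncf1* was 2.18 (SE 0.28, adjusted p = 8.64e-05) and *Rac2* 1.89 (SE 0.17, adjusted p = 7.69e-06) above WTK on the log2 scale. *Ncf4* stood 1.52, *Cybb* 1.28 and *Nos2* 2.44 above it, and *Nox4* 1.15 below it, at a log2 fold change of -1.15 (SE 0.08, adjusted p = 1.45e-06). *Nos3* was called in this comparison, at 0.78 (SE 0.21, adjusted p = 0.0107), and *Cyba* was not, at -0.29 (adjusted p = 0.00503). All 8 genes had groups that did not overlap, against 50.2% of all genes tested. This comparison shares its WTK libraries with the first and its LepK libraries with the second. With library size alone the calls over all genes went from 2984 up and 1431 down to 4782 and 512, and the median from 0.03 to 0.29.

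Of the other oxidase genes 6 of 12 stood higher and 1 lower in LepK than in WTK, among them *Vav1* (1.93), *Sh3pxd2b* (1.64), *Hvcn1* (1.10), *Prex1* (0.82) and *Sh3pxd2a* (0.75) against *Duox1* (-2.34). *Duox1*, a dual oxidase of epithelia, is near the limit of detection, at 0.457 to 0.711 CPM in WTK and 0 to 0.258 CPM in LepK. In peroxide handling 3 of 13 remained lower, led by *Prdx5* (-0.53) and *Gpx3* (-0.52), and none was higher.

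The third comparison asks what the antibody did in bleomycin-injured lung. Only *Ncf4* was called there, lower in LepL, so 1 of the 8 genes fell and none rose, where 4.14% of all genes tested were called, 2.36% down and 1.78% up. The groups did not overlap for 3 of the 8 genes, close to the 33.3% of all genes tested. *Ncf4* had 24.3, 30.6 and 33.8 CPM in IgGL and 19.9, 16.1 and 16.5 CPM in LepL, with a log2 fold change of -0.76 (SE 0.16, adjusted p = 0.0395). This call is weak. Of the 6 fits that leave out 1 library only that without IgGL replicate 1 kept it, at adjusted p = 0.00414, and the others gave 0.0661 to 0.202.

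*Ncf1* had 69.6, 97.5 and 86.1 CPM in IgGL and 68.7, 54.8 and 46.4 CPM in LepL. The groups did not overlap, and the log2 fold change of -0.58 (SE 0.17) missed the threshold at adjusted p = 0.0756. *Nos3* behaved likewise, with 29.1, 30.7 and 45.5 CPM in IgGL, 25.1, 21.7 and 23.0 CPM in LepL and a log2 fold change of -0.59 (SE 0.18, adjusted p = 0.0786). DESeq2 called both, at adjusted p = 0.0198 and 0.0249.

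For the other members the lung groups overlapped. *Cybb* had 149, 140 and 101 CPM in IgGL and 166, 135 and 105 CPM in LepL, with a log2 fold change of 0.06 with a 95% interval from -0.38 to 0.49. *Rac2* had 78.1, 59.3 and 62.1 CPM in IgGL and 84.5, 55.9 and 51.5 CPM in LepL (-0.06, interval -0.49 to 0.38). *Nox4* had 65.1, 57.9 and 41.2 CPM in IgGL and 43.0, 63.1 and 56.9 CPM in LepL (-0.01, interval -0.44 to 0.42). *Cyba* had 196, 197 and 238 CPM against 206, 174 and 157 CPM (-0.23, interval -0.54 to 0.07). *Nos2* was the most scattered, with 11.2, 11.2 and 5.42 CPM in IgGL and 12.4, 6.81 and 9.09 CPM in LepL (0.02, interval -0.70 to 0.74). An adjusted p that misses the threshold does not show equal levels, and the intervals give the changes that the lung data leave possible.

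Leukocyte markers in lung summed to 1572 to 1793 CPM in IgGL and 1329 to 1828 CPM in LepL, with none of 10 called. The macrophage sum was 4235 to 7056 CPM in IgGL and 8294 to 8577 CPM in LepL, although 3 of its 12 markers were called lower and none higher. *Lyz2*, a lysozyme also made by alveolar epithelium, carried that sum and was singled out after its values were seen. The other 11 markers summed to 1731, 2259 and 2032 CPM in IgGL and to 1424, 1315 and 986 CPM in LepL, lower in every LepL library. The neutrophil sum was 257 to 641 CPM in IgGL and 131 to 164 CPM in LepL, with 5 of 11 tested lower. *Ncf4* equalled 1.35% to 1.96% of the leukocyte sum in IgGL and 1.09% to 1.24% in LepL, but 5.27% to 10.9% of the neutrophil sum in IgGL and 9.78% to 14.3% in LepL. Fibroblast markers summed to 5757 to 6531 CPM in IgGL and 2772 to 3621 CPM in LepL, with 5 of 10 lower, and airway and alveolar markers to 16921 to 22869 CPM and 31029 to 48381 CPM, with 3 of 10 higher. The part of cell composition was not tested. Endothelial markers, the cells in which *Nos3* is known to act, summed to 3319 to 3779 CPM in IgGL and 3094 to 3675 CPM in LepL, with none of 12 called.

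Among other oxidase genes 2 of 16 tested fell in LepL and none rose, namely *Sh3pxd2b* (-1.28) and *Sh3pxd2a* (-0.50). *Gpx3* fell by 1.12 and *Cat*, which encodes catalase, rose by 0.98 on the log2 scale, the 2 calls among 13 peroxide handling genes. *Arg1* was the single call in arginine supply. It had 35.2, 178 and 633 CPM in IgGL and 12.8, 17.2 and 7.31 CPM in LepL, with a log2 fold change of -4.51 (SE 0.90, adjusted p = 0.0386). Of the partners and response genes none of 13 was called. *Irf1*, an interferon-induced transcription factor, was the only call among 14 inducers and regulators, at 0.72 (adjusted p = 0.0498).

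The antibody effects of the 2 organs were then compared directly, as kidney minus lung, in 1 model of all 12 injured libraries. With adjusted p under 0.05 as the rule, this difference was called for 2 of the 8 genes, *Cybb* below 0 and *Nos3* above it, where 7.12% of all 21488 genes tested were called, 3.62% below 0 and 3.51% above it. For *Cybb* the difference was -1.37 (SE 0.24, adjusted p = 0.0117), between an effect of -1.35 in kidney and one of 0.06 in lung. It was called in all 12 fits that leave out 1 library, but at adjusted p = 0.124 when both libraries with adrenal transcripts were left out, with a similar size of -1.30. For *Nos3* the difference was 0.92 (SE 0.24, adjusted p = 0.0354), between 0.30 in kidney and -0.59 in lung. That call held in 1 of the 12 fits, without IgGL replicate 1, and otherwise had adjusted p of 0.0520 to 0.0837.

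For *Rac2* (-0.68, adjusted p = 0.132), *Nox4* (0.65, adjusted p = 0.0941) and *Cyba* (0.51, adjusted p = 0.0696) the difference between organs did not pass, so it is not shown that their antibody effects differ. *Ncf1* (-0.54, adjusted p = 0.295) and *Nos2* (-0.16, adjusted p = 0.903) did not pass either. For *Ncf4*, with -0.65 in kidney and -0.76 in lung, the difference was 0.13 with a 95% interval from -0.42 to 0.69. With library size alone the median of all genes moved from -0.01 to -0.25 and the calls from 754 up and 777 down to 249 and 1968, and with upper-quartile scaling to 571 and 912. *Cybb* was called under both, and *Nos3* was not with library size alone (0.67, adjusted p = 0.0889). Among the other oxidase genes *Prex1* (-0.79) and *Poldip2* (0.53) were called.

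**Figure D5:**
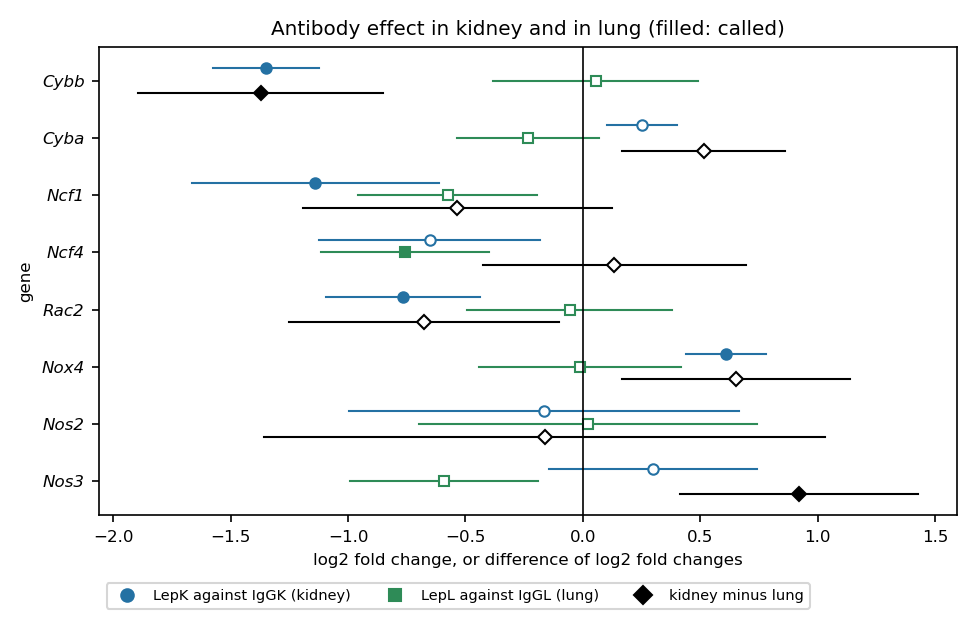
For each gene the upper point is LepK against IgGK, the middle point LepL against IgGL and the lower point the difference between them, on the log2 scale with 95% confidence intervals. Filled symbols are called. The intervals of the kidney minus lung difference lie wholly below 0 for *Cybb* and *Rac2*, and wholly above 0 for *Cyba*, *Nox4* and *Nos3*, before adjustment over all genes.

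Injured lung and injured kidney under control IgG were set side by side last. Organ, agent and day of sampling differ together here and cannot be told apart. IgGL lung held more of 5 of the 8 genes and less of 2, where 50.5% of all genes tested were called, 24.2% higher and 26.3% lower. *Nos3* was 3.66-fold (log2 1.87, SE 0.17, adjusted p = 4.55e-07) and *Ncf1* 3.12-fold higher (log2 1.64, SE 0.22). *Nos2* was 2.45-fold, *Ncf4* 2.08-fold and *Cybb* 1.73-fold higher. *Cyba* stood at 0.458-fold and *Nox4* at 0.521-fold of the kidney level. *Rac2* did not pass (log2 0.38, adjusted p = 0.100). The *Nos2* call was lost without the 2 libraries with adrenal transcripts (log2 1.11, adjusted p = 0.170). Of the other oxidase genes 8 of 15 were higher, among them *Duoxa1* (2.64), *Sh3pxd2b* (2.17), *Sh3pxd2a* (1.60), *Vav1* (1.32), *Rac1* (1.17), *Rap1a* (1.11) and *Prex1* (0.69), and *Poldip2* (-0.69) was lower. *Duoxa1* is near the limit of detection, at 0.0578 to 0.143 CPM in IgGK and 0.526 to 0.865 CPM in IgGL. The endothelial sum was 461 to 502 CPM in IgGK, far under that of lung, and *Nos3* equalled 1.62% to 1.81% of it in IgGK and 0.828% to 1.20% in IgGL.

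Over the 9 kidney libraries the cytosolic subunits, *Rac2* and *Cybb* had like profiles, and *Nox4* and *Cyba* the opposite one. Pearson's r of log2 CPM, given as a description of libraries that share 3 group levels, was 0.95 to 0.98 between any 2 of *Cybb*, *Ncf1*, *Ncf4* and *Rac2*. *Nox4* and *Cyba* correlated with each other at 0.96 and with these 4 at -0.98 to -0.94. *Nos2* had r of 0.85 to 0.92 with the 4, and *Nos3* 0.50 to 0.68. Over the 6 lung libraries the pattern was looser. *Cybb* had r of 0.72 with *Rac2* and 0.74 with *Nos2*, but only 0.17 with *Ncf1* and -0.15 with *Ncf4*, whereas *Ncf1* and *Ncf4* had r of 0.93 and *Ncf4* and *Nos3* 0.92.

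The genes whose profile over the 9 kidney libraries was most like that of *Cybb* were *Mfap3*, *Sash3* and *Lgals3bp* (r at or above 0.996). For *Rac2* they were the class II genes *H2-Aa* and *H2-DMb2* and the adaptor *Sla* (r of 0.997 to 0.998). *Asl*, which follows *Ass1* in arginine synthesis, led for *Nox4* at r of 0.998, with *Pdp2* and *Ccdc91*, and *Qdpr*, which recycles tetrahydrobiopterin, stood among the 3 for *Cyba* at 0.994, with *Slc25a12* and *Fars2*. *Ncf1* was closest to *Nras*, *Efemp2* and *Tuba1a*, *Ncf4* to *B4galnt1*, *Arhgap45* and *Bak1*, *Nos2* to *Styk1*, *Firre* and *Smarcb1*, and *Nos3* to *Grb14*, *Proser2* and *Cldn16*. In lung the leading genes were *Sorcs2* for *Cybb*, *Peds1* for *Cyba*, *Rhof* for *Ncf1*, *Ampd2* for *Ncf4*, *Ikzf1* for *Rac2*, *Thra* for *Nox4* and *Cdc25c* for *Nos3*, with r of 0.991 to 0.999 over 6 libraries. For *Nos2* the gene ENSMUSG00000120461, which has no symbol, led, followed by *Gbf1* (each with r of 0.991).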

How the data were processed

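The count table holds whole-number read counts per gene, which the authors deposited unnormalized for 15 poly(A), non-directional libraries. Its FPKM values, made by the authors, scale those counts by gene length and by a library factor that ran from 1.02 to 1.46 times the total count, so they were used only for levels and ratios within a library. The submitters' processing notes name GRCm39 (mm39) and DESeq2. The aligner and counter are not given in the sources used here. Columns of group means, fold changes and p-values were made by the authors and were not used. A line of the sample descriptions that names a column disagrees with the titles and was set aside.

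Libraries were grouped by their titles. The 8 genes and all gene lists were chosen with earlier results of these data known. Counts were analysed in R 4.3.3 with edgeR 4.0.16 (filterByExpr, minimum count 10 and minimum total 15; TMM scaling; glmQLFit and glmQLFTest) over the 9 kidney libraries (19593 genes), the 6 lung libraries (19617 genes) or the 12 libraries of injured organs (21488 genes), with Benjamini-Hochberg adjustment over all genes tested. A call required both an adjusted p under 0.05 and a log2 fold change beyond 0.5 in either direction. For the difference between organs the adjusted p alone decided. The standard error is the log2 fold change over the square root of F. Normalized CPM uses TMM library sizes within an organ. Replicate libraries differed by a chi-square of at least 6.73 per gene, so none was taken as a repeat deposit. The p-values measure the spread between these libraries only.

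Named were all 8 genes, each called gene among other oxidase genes (1 is not reported here), the 2 called genes of largest change in each other pathway list, and the 3 genes of highest Pearson r (mean of at least 1 CPM). Marker lists are given as sums and counts. Markers called in IgGK against WTK numbered 8 of 8 for T cells, 1 of 6 for B cells, 9 of 10 for fibroblasts, 6 of 7 up and 1 down for adipocytes, 3 up and 1 down of 5 for airway epithelium, 3 of 12 (down) for endothelium and 4 up and 1 down of 6 for alveolar macrophages. The fitting scripts were tested on simulated data.

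Alternatives were RLE, upper-quartile and library-size scaling, DESeq2 1.42.0, no filter, a mean of at least 1 CPM, a replicate block, other fold thresholds, only the 2 groups compared, 1 fit of injured organs, and leaving out each library. Leaving out both IgGK libraries with adrenal transcripts was added after the data were seen.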

Additional observations from a re-analysis of the deposited data

Results flagged for a closer look

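The antibody effect differed between organs for 2 of the 8 genes by the test of the difference itself, where 7.12% of all genes tested were called. For *Cybb* it was -1.37 on the log2 scale (kidney minus lung, SE 0.24, adjusted p = 0.0117, edgeR), with LepK below IgGK in all libraries and overlapping groups in lung. Without the 2 IgGK libraries with adrenal transcripts it was -1.30 with adjusted p = 0.124. For *Nos3* it was 0.92 (SE 0.24, adjusted p = 0.0354), with LepK libraries above IgGK and LepL libraries below IgGL. The *Nos3* call was marginal. Leaving out any of 11 of the 12 libraries ended it, at adjusted p of 0.0520 to 0.0837, while the value stayed between 0.66 and 1.04, and without the 2 adrenal libraries it was 1.02 with adjusted p = 0.218. The organs also differed in agent, dose schedule and day, and none of these can be told apart from organ. Markers of general leukocytes moved in the same direction as *Cybb*, with 5 of 10 called below 0 in the same difference and a median of -0.69. The phagocyte lists showed less. Of 12 macrophage markers 1 was called below 0 and none above, with a median of -0.35. None of 11 neutrophil markers tested was called, with a median of 0.28. Of 12 endothelial markers 1 was called above 0. Their part was not tested.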

How the results depend on the processing

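Of the log2 fold changes of the 8 genes under alternatives, 856 kept their direction and side of the threshold, 34 lost a call, 27 gained one and 19 reversed, each of the last uncalled. The cause was not tested. At an absolute log2 fold change over 1 the members called numbered 2 for LepK against IgGK (4 as reported) and 0 for LepL against IgGL (1 as reported), and all genes called numbered 4297 (injury under IgG, 7310 as reported), 603 (kidney antibody comparison, 2032), 2141 (LepK against uninjured kidney, 4415) and 421 (lung antibody comparison, 812). With no fold threshold 4025 and 7569 genes were called in LepK against IgGK and against WTK. For LepL against IgGL, DESeq2 called 3 members and 2294 genes, the absence of a filter 3 and 2688, and 1 fit of 12 libraries 2 and 2067. For kidney minus lung (2 members and 1531 genes as reported), library size alone called 1 member, the absence of a filter 5 and 2659 genes, and DESeq2 2768 genes. Without the 2 IgGK libraries with adrenal transcripts, kidney minus lung called 0 members and 4 genes, and LepK against IgGK 664 genes.

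Deviations of same-numbered IgGK and LepK libraries had r of 0.345, 0.306 and -0.0923, and those of IgGL and LepL -0.0606, 0.148 and -0.117, so not every pair deviated together and the libraries were taken to share only a number. With a replicate block LepL against IgGL called 0 members and 4 genes (*Ncf4* adjusted p = 0.0939), and kidney minus lung 1 member and 1006 genes.

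Leaving out 1 library gave 4 to 5 members and 1303 to 2260 genes (the lowest without LepK replicate 1) for LepK against IgGK. It gave 0 to 3 members and 0 to 3539 genes for LepL against IgGL, with 0 genes in edgeR in the fits that omit IgGL replicate 2 or either of LepL replicates 2 and 3 (3401 to 4069 at unadjusted p under 0.05) and the highest without IgGL replicate 1. Kidney minus lung gave 1 to 3 members and 352 to 3763 genes, the lowest count of genes without IgGL replicate 2 and the highest without IgGL replicate 1. Reversals lay in LepK against IgGK for *Nos2* (-0.41 to 0.20), in LepL against IgGL for *Cybb* (-0.12 to 0.21), *Rac2* (-0.31 to 0.0787), *Nox4* (-0.18 to 0.13) and *Nos2* (-0.25 to 0.21), and in kidney minus lung for *Ncf4* (-0.0286 to 0.26) and *Nos2* (-0.40 to 0.17). Lung *Nox4* also turned to 0.0216 with library size alone, 0.0289 with upper-quartile scaling and 0.00059 with no filter, and *Ncf4* in kidney minus lung to -0.11 with library size alone. Depth limits *Nos2* in WTK kidney most, at 11 to 15 counts.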
